A study of Mus musculus with 4 samples.

Results

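The transcription machinery that assembles at RNA polymerase II promoters was compared between sorted germ cells labelled Zfp541+/- and Zfp541 KO. ZFP541 is a zinc finger protein of pachytene spermatocytes. The gene set comprised RNA polymerase II, the general transcription factors of the Gtf2 and Gtf3 families, TBP and the TBP-associated factors (TAFs), and Mediator with its cyclin C and CDK8 or CDK19 kinases. A gene belonged to the set if its name matched these families, a rule that uses no measured value, which gave 93 genes of the 24411 listed in the deposited tables. All 93 averaged 1 TPM or more (TPM is a level per transcript length, scaled to the library total) and were tested together with the other genes above this level, 14512 in all.

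The samples were GFP-positive male germ cells sorted from mouse testes at postnatal day 18, all carrying the knock-in allele Rec8-3xFLAG-HA-p2A-GFP, which makes GFP from the locus of the meiotic cohesin gene Rec8. Polyadenylated RNA was sequenced from 2 control Zfp541+/- samples, which carry 1 intact allele of Zfp541, and from 2 samples labelled Zfp541 KO. The strain is labelled as C57BL/6 and CBA mixed, and the Zfp541 KO allele is a Cas9 deletion of exons 1 to 13. Each sample was 1 testis. The knock-in allele was heterozygous in 1 of the controls and homozygous in the other and in both KO samples, and which control is which is not given in the sources used here, so its dose and the difference between the controls cannot be told apart. Values of a gene are given in the order replicate 1 then replicate 2 of each genotype.

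At a promoter, TBP within TFIID binds DNA near the start site, TFIIA stabilizes TBP on the DNA, and TFIIB, TFIIF, TFIIE and TFIIH complete the preinitiation complex around RNA polymerase II. Mediator joins DNA-bound activators to this complex, and its dissociable kinase module of CDK8 or CDK19, cyclin C, MED12 and MED13 controls that contact. Germ cells also make paralogues of several of these subunits. TAF4B and TAF7L are counterparts of TAF4 and TAF7 in TFIID, GTF2A1L (also known as ALF) is the germ cell counterpart of the large TFIIA subunit, and TBPL1 (also known as TRF2 or TLF) is a TBP relative required for spermiogenesis that also binds TFIIA.

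Promoter sequences are printed for the pair of genes for the large TFIIA subunit, which lay in opposite directions between genotypes, and for Med13, the member with the highest fold change. They are the 250 bases before the RefSeq start site on GRCm38.p6, written from 5′ to 3′ on the strand of the gene, and capitals mark matches to the searched motifs. The windows are chr17:88668410-88668659 on the plus strand for Gtf2a1l, chr12:91590488-91590737 on the minus strand for Gtf2a1, and chr11:86357597-86357846 on the minus strand for Med13.

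Gtf2a1l: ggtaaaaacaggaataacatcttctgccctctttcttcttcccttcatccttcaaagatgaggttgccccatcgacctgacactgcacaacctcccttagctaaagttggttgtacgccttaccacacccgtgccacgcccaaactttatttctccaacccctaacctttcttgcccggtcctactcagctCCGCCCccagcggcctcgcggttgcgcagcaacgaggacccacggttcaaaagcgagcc

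Gtf2a1: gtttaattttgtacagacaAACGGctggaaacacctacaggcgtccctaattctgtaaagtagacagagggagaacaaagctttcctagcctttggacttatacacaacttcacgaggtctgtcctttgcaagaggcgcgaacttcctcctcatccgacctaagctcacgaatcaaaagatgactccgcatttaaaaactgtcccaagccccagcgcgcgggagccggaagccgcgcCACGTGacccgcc

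Med13: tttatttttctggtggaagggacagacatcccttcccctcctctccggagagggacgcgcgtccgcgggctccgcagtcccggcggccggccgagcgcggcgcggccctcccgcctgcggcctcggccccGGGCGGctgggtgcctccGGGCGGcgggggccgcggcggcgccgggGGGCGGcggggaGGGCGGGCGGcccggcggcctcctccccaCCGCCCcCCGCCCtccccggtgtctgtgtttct

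Both strands were searched for a TATA box core (TATAAA), a GC box (GGGCGG), a cAMP response element core (TGACG), a MYB core (AACGG) and an E-box (CACGTG). Matches of 1 motif were allowed to overlap, and they do so in the Med13 window. The Gtf2a1l window had a G+C content of 54.4%, 13 CpG dinucleotides and 1 match, a GC box whose first base lies 59 bases before the start site. The Gtf2a1 window had a G+C content of 51.6%, 16 CpG dinucleotides, a MYB core 231 bases before the start site and an E-box 13 bases before it. For Med13, the G+C content was 80.0%, with 37 CpG dinucleotides and 7 GC boxes. RefSeq promoters were matched for 81 members, which have 97 start sites. The GC box was present in 58.8% of the members' windows and in 55.4% of those of all tested genes, the cAMP response element core in 34.0% and 25.3%, the MYB core in 22.7% and 19.3%, the E-box in 15.5% and 8.20%, and the TATA box core in 13.4% and 6.68%. A match describes letters in these windows and nothing about binding.

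Several properties of the libraries bear on all values below. Zfp541 itself was listed at 112 and 72.2 TPM in the controls against 136 and 151 TPM in the KO-labelled libraries, so the gene-level value did not go down with the label. This value covers the whole gene and does not separate the deleted exons from the rest, although exons 1 to 13 hold between 76.8% and 92.1% of the exonic bases of the annotated transcripts, which have 14 to 18 exons (GENCODE M21). Rec8 was at 7.05 and 27.9 TPM in the controls against 27.7 and 19.4 TPM in the KO-labelled libraries. The controls differed from each other far more than the KO-labelled libraries did: among the members the median absolute log2 difference was 0.57 between the controls and 0.093 between the KO-labelled libraries. TPM keep no sequencing depth, so the counting error of each value is unknown.

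Lists of marker genes for the cell types that the sort could hold also differed. The summed level of 8 leptotene and zygotene markers was 1880 and 2410 TPM in the controls against 3910 and 4040 TPM in the KO-labelled libraries, and 7 of the 8 were higher in both KO-labelled libraries than in both controls. That of 8 pachytene markers was 7010 and 3930 TPM in the controls against 1860 and 2750 TPM in the KO-labelled libraries, with 5 of 8 lower in both. These 2 lists thus lay in opposite directions, with median log2 fold changes of 0.92 and -1.08. Hist1h1t, the gene of the testis linker histone H1t that marks mid pachytene cells, was at 2.55 and 2.44 TPM in the controls against 1.00 and 2.44 TPM in the KO-labelled libraries, and was thus low in all 4. The study reports that H1t-positive pachytene spermatocytes made up a large part of the GFP-positive cells. What lies behind the low level of this RNA, which is 1 of the 8 pachytene markers, was not tested.

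The 5 Leydig cell markers summed to 2870 TPM in control 1, 18.0 TPM in control 2, and 324 and 491 TPM in the KO-labelled libraries. The 5 macrophage markers summed to 1580 TPM in control 1, 15.3 TPM in control 2, and 1300 and 932 TPM in the KO-labelled libraries. Control 2 was therefore the library with the least signal from both somatic cell types. The 8 spermatogonial markers summed to 324 TPM in control 1, 980 TPM in control 2, and 674 and 485 TPM in the KO-labelled libraries. Sertoli cell markers, 5 in number, ranged from 107 to 184 TPM, and the 6 spermatid markers from 13.9 to 28.7 TPM, with Prm1 and Tnp1 at 1.48 TPM or less. The spermatid markers differed in direction. Spaca1 was at 7.34 and 13.9 TPM in the controls against 27.0 and 26.6 TPM in the KO-labelled libraries. Tnp2 was at 7.59 and 0 TPM in the controls against 0.46 and 0.75 TPM in the KO-labelled libraries. In bulk samples, fewer cells of a type and less RNA per cell cannot be told apart. The part of these differences in the results below was not tested.

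**Figure D1:**
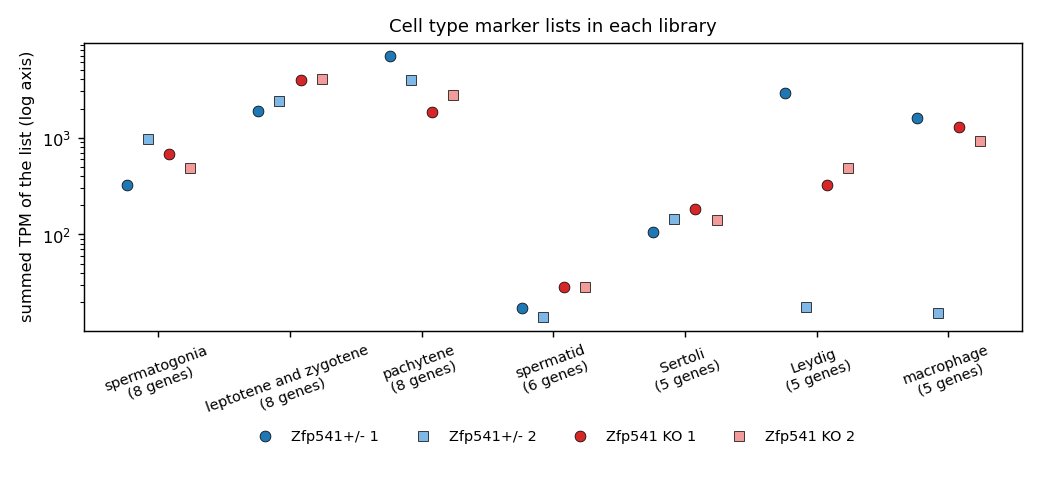
Summed TPM of 7 lists of cell type markers (horizontal axis) in each of the 4 libraries, on a log axis. The leptotene and zygotene list is higher in both KO-labelled libraries (3910 and 4040 TPM) than in both controls, the pachytene list is lower, and the Leydig and macrophage lists are lowest, at 18.0 and 15.3 TPM, in Zfp541+/- 2.

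Differences between genotypes were tested with limma on log2(TPM + 1), with Benjamini-Hochberg adjustment over all 14512 genes. A log2 fold change below is that of the KO-labelled libraries over the controls on this scale, which understates changes of low genes. No member passed a false discovery rate of 0.05, and no gene of any kind did (0.0% of those tested). The smallest adjusted p among the members was 0.31. At an unadjusted p under 0.05, 13 members were higher in the KO-labelled libraries, that is 14.0%, against 10.7% of all tested genes, and 1 was lower, against 3.73%. Both KO-labelled libraries lay above both controls for 41 members (44.1%, against 38.6% of all tested genes) and below both for 8 members (8.60%, against 12.1%), and the groups overlapped for the other 44. The median log2 fold change was 0.23 for the members and 0.28 for all tested genes. As a set, the machinery thus lay close to the transcriptome as a whole on the deposited scale with both controls. The difference of these medians was 0.205 without control 2 and -0.374 without control 1. A scaling by the median ratio moved the median of all genes to -0.01 and the split of members with separate groups to 20 higher and 20 lower, against 22.6% and 22.8% of all tested genes. Quantile normalization gave 24 higher and 12 lower, against 27.8% and 19.4%. A correction for transcript length gave 54 of the 93 members higher, a larger share than the 39.5% of all tested genes. It gave 10 lower, against 10.8%. At an unadjusted p under 0.05, the median-ratio scaling left 3 members higher and 3 lower, against 4.18% and 7.56% of all tested genes, quantile normalization 8 and 2, against 6.96% and 6.95%, and the length correction 13 and 2, against 11.7% and 2.71%. Of the members, 67 had a fold change above 0 (72.0%, against 69.0% of all tested genes), and 39 did after median-ratio scaling, so the directions of small fold changes below hold for the deposited scale only.

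**Figure D2:**
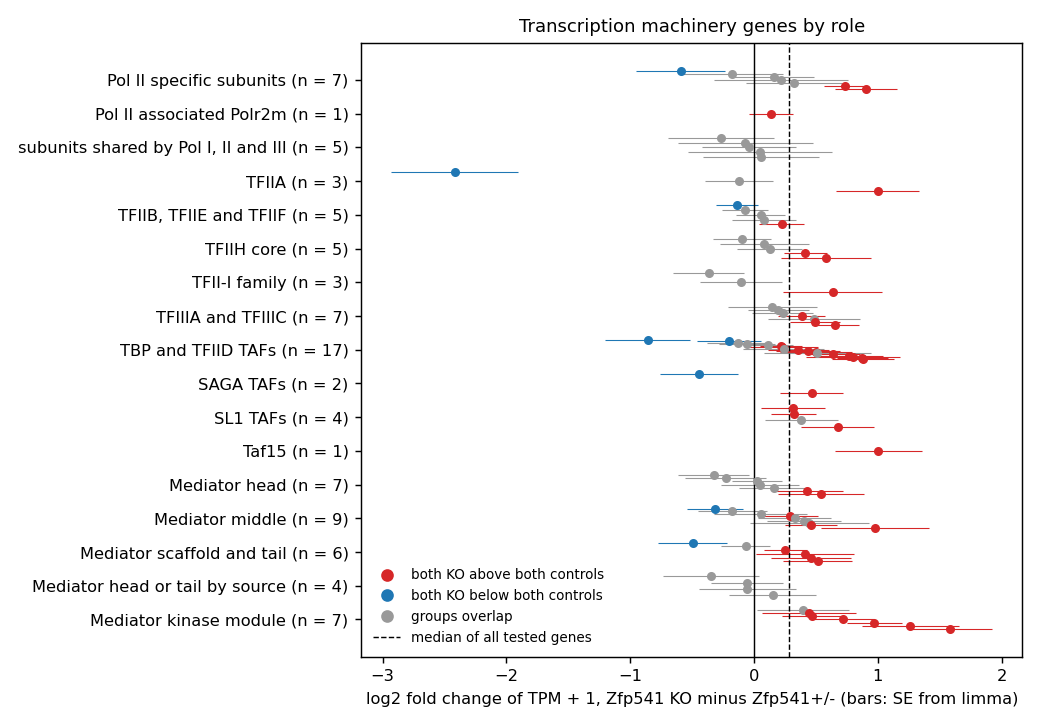
Log2 fold change of TPM + 1 (horizontal axis, libraries labelled Zfp541 KO minus Zfp541+/-) for the 93 members, grouped by role, with standard errors from limma. Gtf2a1l stands at -2.42, 6 of the 7 kinase module genes have separate groups above 0, and the shared polymerase subunits lie within 0.27 of 0.

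TFIIA held the member with the lowest fold change. Gtf2a1l was at 115 and 49.8 TPM in the controls against 10.5 and 17.0 TPM in the KO-labelled libraries. Both KO-labelled libraries were below both controls, although the controls themselves differed by more than 2-fold. Its log2 fold change was -2.42 (SE 0.51, n = 2 per genotype), with an unadjusted p of 0.0077 and an adjusted p of 0.31 by limma, and 1.21% of tested genes had a lower fold change. Leaving out each library in turn gave values from -3.02 to -1.82, the weakest of them without control 1. The gene lies at chr17:88668660-88715152 on the plus strand (GRCm38) and overlaps no other coding gene.

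Gtf2a1, which encodes the large TFIIA subunit of somatic cells, was at 41.5 and 23.8 TPM in the controls against 60.4 and 67.4 TPM in the KO-labelled libraries. It was higher in both KO-labelled libraries, the opposite of Gtf2a1l, with a log2 fold change of 1.00 (SE 0.33, adjusted p = 0.33 by limma). After length correction its fold change was 0.715. Gtf2a1 lies at chr12:91555262-91590487 on the minus strand. Gtf2a2, the gene for the small TFIIA subunit that pairs with either large one, was at 223 and 342 TPM in the controls against 260 and 249 TPM in the KO-labelled libraries, which lay between the controls.

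The order of the large subunit genes was therefore exchanged between genotypes. Gtf2a1l exceeded Gtf2a1 by 2.78-fold and 2.09-fold in the controls, whereas Gtf2a1 exceeded Gtf2a1l by 5.75-fold and 3.96-fold in the KO-labelled libraries. On the log2(TPM + 1) scale, the ratio of Gtf2a1l to Gtf2a1 was 1.46 and 1.03 in the controls against -2.42 and -1.93 in the KO-labelled libraries, a difference of -3.42 with a pooled SD of 0.32. Values of this difference were between -3.66 and -3.17 over the 4 fits that leave out 1 library. The exact two-sided permutation test gave p = 0.33, which is the smallest that 2 libraries against 2 allow, and 0.56 after adjustment over the 10 ratios compared. A single scaling factor per library does not move a ratio within it, apart from the pseudocount. The pachytene and the leptotene and zygotene marker lists lay in the same opposite directions, and their part in the exchange was not tested.

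**Figure D3:**
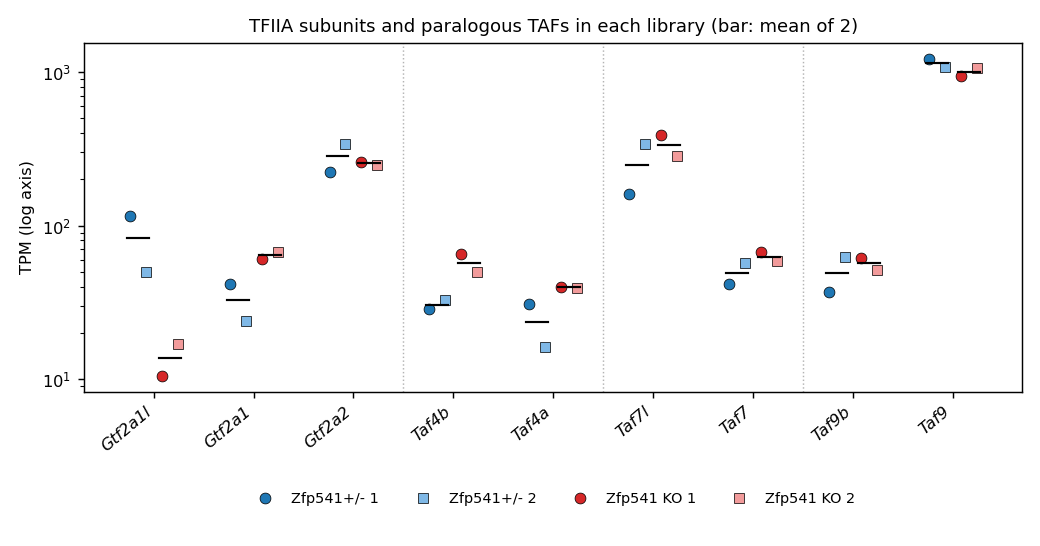
TPM on a log axis of the 3 TFIIA genes and of the Taf4b, Taf7l and Taf9b pairs in each library, with a bar at the mean of each genotype. Gtf2a1l lies above Gtf2a1 in both controls and below it in both KO-labelled libraries, whereas Taf7l stays above Taf7 and Taf9b below Taf9 in all 4 libraries.

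The germ cell TAF genes Taf4b and Taf7l were not lower in the KO-labelled libraries. Taf4b was at 28.4 and 32.6 TPM in the controls against 65.3 and 49.6 TPM in the KO-labelled libraries, with separate groups and a log2 fold change of 0.88 (SE 0.25, adjusted p = 0.31 by limma). Taf4a, the symbol under which the tables list the Taf4 gene, was at 30.8 and 16.1 TPM in the controls against 39.9 and 39.3 TPM in the KO-labelled libraries, again with separate groups and a log2 fold change of 0.80 (SE 0.38, adjusted p = 0.41 by limma). Both genes were higher, and their log2 ratio differed by 0.08 between genotypes with a pooled SD of 0.58. This ratio turned to -0.46 without control 1.

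Taf7l, an X-linked gene, was at 160 and 339 TPM in the controls against 387 and 285 TPM in the KO-labelled libraries, so the groups overlapped. Its log2 fold change of 0.51 became -0.03 without control 1. Taf7 was at 41.5 and 57.2 TPM in the controls against 66.8 and 58.9 TPM in the KO-labelled libraries. Taf7l exceeded Taf7 by between 3.86-fold and 5.92-fold in the 4 libraries, and the log2 ratio differed by 0.15 between genotypes with a pooled SD of 0.34.

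The other germ cell relative, Tbpl1, which the name rule does not include, was at 158 and 84.1 TPM in the controls against 83.4 and 89.9 TPM in the KO-labelled libraries. On the deposited scale its groups overlapped because control 2 lay between the KO-labelled libraries, with a log2 fold change of -0.411. Both KO-labelled libraries lay below both controls after median-ratio scaling (-0.745) and quantile normalization (-0.575). The groups of Tbpl1 overlapped after length correction (-0.376). Tbp was at 161 and 108 TPM in the controls against 121 TPM in both KO-labelled libraries, between the controls. This overlap depended on the scaling: the log2 fold change of Tbp was -0.13 as deposited. With both KO-labelled libraries below both controls, it was -0.46 after median-ratio scaling and -0.24 after quantile normalization. After length correction it was -0.69, again with separate groups (adjusted p = 0.32 by limma). That correction used the longest annotated transcript, 12794 nt for Tbp, the highest length among the members. How far the value rests on this length was not tested. The log2 ratio of Tbpl1 to Tbp was -0.03 and -0.36 in the controls against -0.53 and -0.43 in the KO-labelled libraries, a difference of -0.28 with a pooled SD of 0.18. The oocyte relative Tbpl2 was listed at 0 in all 4 libraries.

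TBP and the TAFs of TFIID numbered 17. Their median log2 fold change was 0.36, and 10 had both KO-labelled libraries above both controls and 2 below (58.8% and 11.8%, against 38.6% and 12.1% of all tested genes). After median-ratio scaling the median was 0.03, with 6 higher and 3 lower, against 22.6% and 22.8% of all tested genes. After quantile normalization it was 0.15, with 7 higher and 2 lower, against 27.8% and 19.4%. Taf13, whose product pairs with TAF11, was at 44.8 and 41.6 TPM in the controls against 87.9 and 72.7 TPM in the KO-labelled libraries, with a log2 fold change of 0.87 (SE 0.21, adjusted p = 0.31 by limma). Taf1, the largest TFIID subunit, was at 19.9 and 17.6 TPM in the controls against 36.7 and 29.01 TPM in the KO-labelled libraries, with a log2 fold change of 0.77 (SE 0.27, adjusted p = 0.33 by limma). For both genes the controls were close to each other and below both KO-labelled libraries. After length correction the fold change of Taf1 was 0.375. Taf5, a scaffold of TFIID with WD40 repeats, had a log2 fold change of 0.64, also with separate groups.

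Taf10, which encodes a histone fold subunit of TFIID and SAGA, was the lowest of the TFIID genes. It stood at 211 and 384 TPM in the controls against 166 and 148 TPM in the KO-labelled libraries, a log2 fold change of -0.86 (SE 0.34, adjusted p = 0.36 by limma). The groups were separate but the controls differed by as much as the genotypes. Taf10 overlaps Ilk on the other strand, and whether the counting used strand is not given in the sources used here. Taf9, the member with the highest level, was at 1227 and 1083 TPM in the controls against 947 and 1059 TPM in the KO-labelled libraries, but it shares its locus and strand with Ak6, so its reads may be split between them. Its paralogue Taf9b was at 36.6 and 61.9 TPM in the controls against 61.8 and 51.4 TPM in the KO-labelled libraries, with overlapping groups.

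TAFs outside TFIID were also measured. The SAGA subunit gene Taf6l was at 19.0 and 25.1 TPM in the controls against 17.9 and 13.9 TPM in the KO-labelled libraries, a log2 fold change of -0.45 (adjusted p = 0.54 by limma), while its paralogue Taf6 had overlapping groups. The log2 ratio of Taf6l to Taf6 differed by -0.39 with a pooled SD of 0.13. Taf5l, the SAGA counterpart of Taf5, was higher in both KO-labelled libraries with a log2 fold change of 0.46, and its ratio to Taf5 overlapped between genotypes. Taf1a, Taf1b, Taf1c and Taf1d are the TAF genes of SL1, the TBP complex of RNA polymerase I. Of these, 3 had separate groups above the controls (75.0%, against 38.6% of all tested genes), and the median of all 4 was 0.35. After median-ratio scaling 1 of the 4 was separate and higher, against 22.6% of all tested genes, and the median was 0.02. Taf15, an RNA-binding protein gene of the FET family, was at 231 and 124 TPM in the controls against 340.3 and 339 TPM in the KO-labelled libraries, a log2 fold change of 1.00 (SE 0.35, adjusted p = 0.34 by limma).

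Among RNA polymerase II genes, the largest subunits had the highest fold changes on the deposited scale with both controls. This order depended on transcript length and on control 2. After length correction Polr2a was at 0.58, the median of the 7 subunit genes specific to RNA polymerase II. Without control 2 it was likewise at their median, 0.635. Polr2a, which encodes the largest subunit with the carboxy-terminal domain, was at 197 and 135 TPM in the controls against 306 and 307 TPM in the KO-labelled libraries, a log2 fold change of 0.91 (SE 0.25, adjusted p = 0.31 by limma). Polr2b, for the second largest subunit, was at 137 and 145 TPM in the controls against 237 and 234 TPM in the KO-labelled libraries, a log2 fold change of 0.74 (SE 0.17, adjusted p = 0.31 by limma). Both genes had separate groups and controls closer together than the genotypes.

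Polr2i, a small zinc-binding subunit gene, was at 93.6 and 179 TPM in the controls against 88.5 and 82.9 TPM in the KO-labelled libraries, a log2 fold change of -0.59 (SE 0.36, adjusted p = 0.49 by limma). It overlaps Tbcb, and control 1 lay close to both KO-labelled libraries. The fold change was -0.16 with overlapping groups after length correction, -1.06 without control 1 and -0.13 without control 2. Groups overlapped for the 5 subunits shared by RNA polymerases I, II and III. Polr2k, the smallest of them, was at 112 and 347 TPM in the controls against 206 and 202 TPM in the KO-labelled libraries. In all 5, both KO-labelled libraries lay between the controls, and the median difference of control 2 over control 1 was 1.27 on the log2 scale.

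The remaining general factors showed smaller differences. Gtf2b, the single subunit of TFIIB, was at 159 and 158 TPM in the controls against 146 and 143 TPM in the KO-labelled libraries, a log2 fold change of -0.14 (SE 0.17, adjusted p = 0.72 by limma). The 5 genes of TFIIB, TFIIE and TFIIF lay between -0.14 and 0.22. The 5 TFIIH core genes had a median of 0.13, with Gtf2h2 and Gtf2h3 higher in both KO-labelled libraries. For TFIIIA and TFIIIC, which serve RNA polymerase III, all 7 fold changes were above 0 with a median of 0.38, and Gtf3c1, Gtf3c2 and Gtf3c3 had separate groups (42.9%, against 38.6% of all tested genes). Only 4 of the 7 were above 0 after median-ratio scaling and after quantile normalization, with medians of 0.05 and 0.13. In the TFII-I family, Gtf2ird1 alone of 3 had separate groups on the deposited scale (33.3%, against 38.6%), with a log2 fold change of 0.64. After median-ratio scaling 2 of the 3 were separate and lower, against 22.8% of all tested genes. The same count was reached after quantile normalization, against 19.4%, and after length correction, against 10.8%.

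The Mediator kinase module was the role group with the highest median log2 fold change among groups of 3 or more genes, 0.72, against 0.15 for the 26 other Mediator genes and 0.28 for all tested genes. This rank was lost after length correction and without control 2. Of its 7 genes, 6 had both KO-labelled libraries above both controls (85.7%, against 38.6% of all tested genes), and 4 had an unadjusted p under 0.05 (57.1%, against 10.7%). With the median-ratio scaling 5 of 7 had separate groups, against 22.6% of all tested genes, and the median was 0.40, against -0.18 for the other Mediator genes.

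Med13, whose product links the kinase module to core Mediator, was at 20.4 and 11.8 TPM in the controls against 48.4 and 49.0 TPM in the KO-labelled libraries. Its log2 fold change was 1.59 (SE 0.34, unadjusted p = 0.0079, adjusted p = 0.31 by limma), and it was between 1.22 and 1.95 over the 4 fits that leave out 1 library. After length correction it was 1.09. Med13l, its paralogue, was at 16.7 and 8.81 TPM in the controls against 30.5 and 30.7 TPM in the KO-labelled libraries, a log2 fold change of 1.26 (SE 0.39, adjusted p = 0.32 by limma). After length correction the fold change of Med13l was 0.81. Without this correction both were at least 2-fold higher on the log2(TPM + 1) scale, as was Taf15, and no other member was.

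Cdk8 was at 46.3 and 35.9 TPM in the controls against 83.5 and 78.2 TPM in the KO-labelled libraries, a log2 fold change of 0.97 (SE 0.22, adjusted p = 0.31 by limma). The alternative kinase gene Cdk19 was at 30.5 and 16.5 TPM in the controls against 30.7 and 29.2 TPM in the KO-labelled libraries. Its groups overlapped, and its fold change of 0.40 became -0.03 without control 2. The log2 ratio of Cdk19 to Cdk8 was accordingly lower in both KO-labelled libraries, by a difference of -0.58 with a pooled SD of 0.24 (exact permutation p = 0.33).

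Med12, an X-linked gene whose product activates the kinase, was at 21.3 and 18.2 TPM in the controls against 33.8 and 32.6 TPM in the KO-labelled libraries, a log2 fold change of 0.72 (SE 0.25, adjusted p = 0.33 by limma). After length correction it was 0.39. Ccnc, the cyclin C gene, was at 32.1 and 41.5 TPM in the controls against 53.8 and 48.1 TPM in the KO-labelled libraries, a log2 fold change of 0.47 (SE 0.24, adjusted p = 0.43 by limma), and it overlaps Tstd3 on the other strand. Med12l was the member with the lowest level, at 2.51 and 2.15 TPM in the controls against 3.83 and 3.25 TPM in the KO-labelled libraries. The ratios of Med13l to Med13 and of Med12l to Med12 were lower in both KO-labelled libraries, by 0.32 and 0.28 on the log2 scale with pooled SDs of 0.06 and 0.07 (exact permutation p = 0.33 for each). Because Med12l was low, its ratio depended on the pseudocount, with a difference of -0.17 at a pseudocount of 0.1 and -0.41 at 5.

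**Figure D4:**
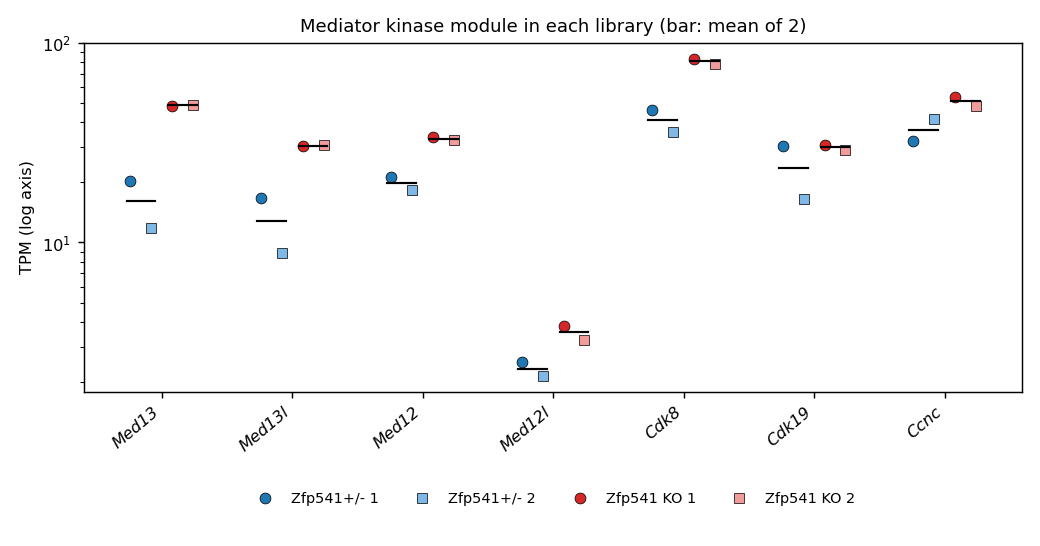
TPM on a log axis of the 7 genes of the Mediator kinase module in each library, with a bar at the mean of each genotype. Both KO-labelled libraries lie above both controls for every gene except Cdk19, for which KO 2 (29.2 TPM) lies below control 1 (30.5 TPM).

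Of the 26 genes of core Mediator, 9 were higher in both KO-labelled libraries than in both controls and 2 were lower (34.6% and 7.69%, against 38.6% and 12.1% of all tested genes). Median-ratio scaling turned this balance to 2 higher and 7 lower, against 22.6% and 22.8% of all tested genes. Quantile normalization turned it to 3 and 4, against 27.8% and 19.4%. Med1, the subunit that binds nuclear receptors, was the highest of its genes by fold change, at 87.2 and 38.1 TPM in the controls against 113 and 116 TPM in the KO-labelled libraries (log2 fold change 0.98, SE 0.44, adjusted p = 0.39 by limma). The difference between the controls was larger than that between genotypes. Med16, a tail subunit gene, was at 123 and 78.9 TPM in the controls against 65.6 and 73.5 TPM in the KO-labelled libraries, a log2 fold change of -0.50 (SE 0.28, adjusted p = 0.46 by limma). Med9, a middle subunit gene, was at 48.6 and 62.4 TPM in the controls against 44.0 TPM in both KO-labelled libraries. The head module, 7 genes, had a median of 0.05 with 2 genes separate and higher. The middle module, 9 genes, had a median of 0.33 with 3 higher and 1 lower, and the scaffold and tail, 6 genes, a median of 0.33 with 4 higher and 1 lower. The 4 genes placed in the head or tail depending on the source (Med27, Med28, Med29 and Med30) all had overlapping groups.

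The difference between the controls went with transcript length across the members. The kinase module genes are among the long ones, with a median longest transcript of 6940 nt, against 2973 nt for all members. Of the 13 members shorter than 1500 nt, 12 were higher in control 2 than in control 1, whereas of the 28 members of 4000 nt or longer only 8 were. Spearman's rho with transcript length over the 93 members was -0.57 for control 2 against control 1, within 0.01 of 0 for each KO-labelled library against control 1 and for those 2 against each other, and 0.62 and 0.63 for each KO-labelled library against control 2. The points share their libraries, so these coefficients are descriptions. Among the members, the relation was thus present in the comparisons that include control 2. Over all tested genes, a weaker relation was also present against control 1, with a rho of 0.14 for each KO-labelled library. Against control 1 alone, the kinase module had medians of 0.73 and 0.59 in the 2 KO-labelled libraries. All members had 0.34 in both, and all tested genes 0.17 and 0.13. The polymerase subunits were as high against control 1, with medians of 0.63 and 0.64 for those specific to RNA polymerase II and 0.60 and 0.67 for the shared ones. In the fit without control 2, the shared subunits (0.68) likewise lay above the kinase module (0.65). After a correction of each library for length, 5 of the 7 kinase module genes had separate groups above the controls, against 39.5% of all tested genes. So did 5 of the 7 subunits specific to RNA polymerase II. The median was then 0.43 for the kinase module, against 0.27 for all members. It was 0.58 for the subunits specific to RNA polymerase II, 0.52 for the SL1 TAF genes and 0.48 for the Mediator middle.

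**Figure D5:**
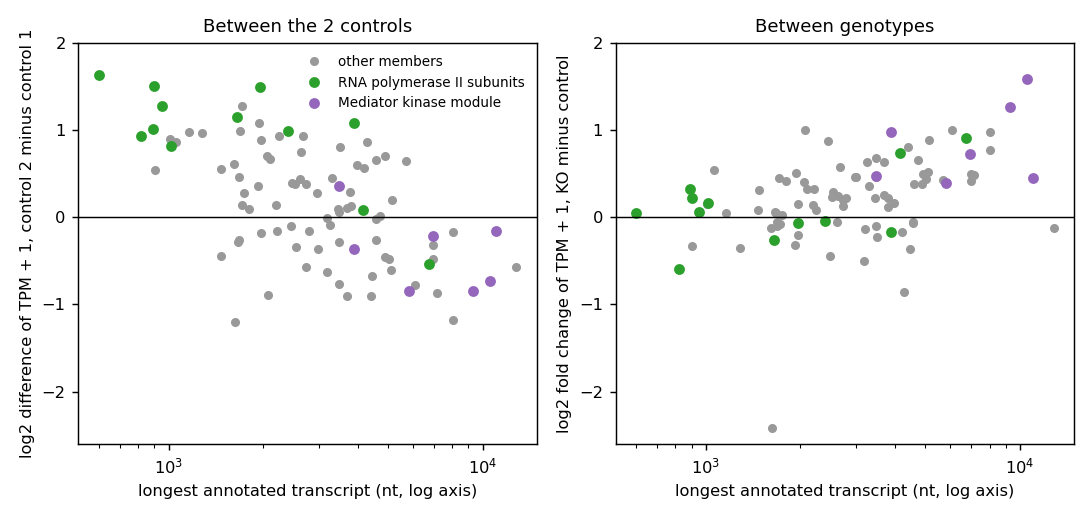
Log2 difference of TPM + 1 (vertical axes) against the longest annotated transcript of each of the 93 members on a log axis, for control 2 minus control 1 (left) and for the KO-labelled libraries minus the controls (right). On the left the short RNA polymerase II subunit genes lie mostly above 0 and the long kinase module genes mostly below, and on the right the long kinase module genes lie above 0.

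For 61 of the 93 members the controls differed by more than the genotypes did, and for 31 both KO-labelled libraries lay between the controls. Of the members, 11 were at least 2-fold apart between the controls and 0 between the KO-labelled libraries. The list of members with separate groups therefore depended on both controls. So did the members' median log2 fold change, which was 0.358 without control 2 and 0.069 without control 1. Its difference from the median of all tested genes was 0.205 and -0.374 in these fits.

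Other factors that act with this machinery were listed separately: 61 genes of TFIIH kinase, RNA polymerases I and III, elongation factors and SAGA, of which 60 were tested. Both KO-labelled libraries lay above both controls for 35 (58.3%, against 38.6% of all tested genes) and below for 6 (against 12.1%), and the median log2 fold change was 0.35. The highest was Bdp1, a TFIIIB subunit gene, at 12.3 and 6.51 TPM in the controls against 27.1 and 27.2 TPM in the KO-labelled libraries. Supt6, a histone chaperone gene of elongating polymerase, was at 101 and 61.2 TPM in the controls against 184 and 220 TPM in the KO-labelled libraries. The carboxy-terminal domain kinase gene Cdk12 was at 39.8 and 21.8 TPM in the controls against 71.6 and 71.4 TPM in the KO-labelled libraries. All 3 had separate groups and adjusted p values of at least 0.31 by limma. Their longest transcripts are 9921, 6488 and 5912 nt, and all 3 were lower in control 2 than in control 1. Most of the long members differed between the controls in the same direction.

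The elongation factor gene Tcea2, which is testis-enriched, was the lowest of this list, at 438 and 416 TPM in the controls against 225 and 268 TPM in the KO-labelled libraries. Its log2 fold change was -0.79 (SE 0.20, adjusted p = 0.31 by limma). Its controls lay close together, unlike those of Gtf2a1l, and Tcea1, the paralogue found in most tissues, had a log2 fold change of 0.58 with separate groups. These genes were named after their values were seen.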

How the data were processed

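RNA of GFP-positive testis cells was compared between 2 Zfp541+/- samples and 2 samples labelled Zfp541 KO, grouped by their labels. The authors deposited TPM per gene and sample. Per the submitters' processing notes and the study's methods, reads were trimmed with Trim Galore 0.5.0 and cutadapt 1.16, aligned to mm10 with STAR 2.6.0a and quantified with RSEM 1.3.1. TPM keep no depth, so depth is unknown and no counting interval can be given.

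Genes averaging 1 TPM or more were fitted by genotype as log2(TPM + 1) with limma 3.58.1 (R 4.3.3), with its trend option, and p-values were adjusted by Benjamini-Hochberg over all of them (threshold 0.05). The fit was tested on simulated data. Ratios of 10 paralogue pairs were compared with exact two-sided permutation tests (scipy 1.17.1). A loess with a span of 0.5 on transcript length gave the length correction. The study's own differential test with RSEM was not repeated. Positions and transcript lengths came from GENCODE M21, while the study counted with a UCSC mm10 annotation, and promoter sequences came from RefSeq (GRCm38.p6). Membership follows gene names alone, but this name rule and the gene lists were chosen with earlier results of these data known. Genes named in full were both genes of each pair, Tbp, Taf1, Polr2a, the kinase module, and the 8 highest and 8 lowest fold changes among members whose groups did not overlap. Other genes were named after their values were seen. Same-numbered samples are not tied to a litter or day in the labels, so the replicate block was an alternative only. No 2 samples held identical values, and none was left out.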

Additional observations from a re-analysis of the deposited data

How the results depend on the processing

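With 2 samples per genotype, of unknown depth, each control weighs on every value. The adjusted p values of the members lay above 0.05 under each scaling, pseudocount, filter and length correction tried. Leaving out 1 library moved the number of members past an FDR of 0.05 between 0 and 49, with 49 without control 1 (against 48.1% of all tested genes), 35 without control 2 (28.4%) and 0 without either library labelled KO. In the first 2 fits the spread comes from the libraries labelled KO alone, and the remaining control is assumed to vary like them.

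Members at an unadjusted p under 0.05 numbered 3 in each direction under the median-ratio method, 8 higher and 2 lower after quantile normalization, 2 lower with length correction, and between 0 and 48 higher and between 1 and 23 lower without 1 library. Members with separate groups numbered 20 higher and 20 lower after median-ratio scaling, 24 higher after quantile normalization, and 44 to 74 higher and 8 to 36 lower without 1 library. Leaving out a library can only keep or add to the genes with separate groups, whether members or not. For the counts of both kinds without 1 library, no share of all tested genes was taken. They therefore do not set the members apart from other genes.

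The members' median log2 fold change was -0.094 after median-ratio scaling, 0.088 after quantile normalization and 0.069 to 0.36 without 1 library. Its difference from that of all tested genes was 0.02 with a pseudocount of 5, 0.21 with no filter, 0.011 with quantile normalization and -0.37 to 0.21 without 1 library. Of all members, 67 had a fold change above 0, and 39 after median-ratio scaling. The causes were not tested.

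The replicate block gave 7 members at an unadjusted p under 0.05 that were higher, and with length correction 5 higher and 3 lower. No share of all tested genes was taken for these counts. The block gave 0 members past the FDR. Deviations of same-numbered libraries had a correlation of -0.156 over 14512 genes. The crossed pairing, added after the data were seen, gave 1 member past the FDR (lower), 2 lower at an unadjusted p under 0.05, and 7 higher and 80 lower of all genes past the FDR.

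Without 1 library, the log2 ratio of Taf4b to Taf4a ran from -0.46 to 0.63, of Taf7l to Taf7 from -0.16 to 0.46, of Taf9b to Taf9 from -0.02 to 0.90, and of Taf5l to Taf5 from -0.37 to 0.027. Among the genes named by rule, the fold changes that changed sign were those of Taf7l (-0.027 to 1.05), Taf9b (-0.13 to 0.61), Cdk19 (-0.025 to 0.82), Tbpl1 (-0.86 to 0.041), Taf6 (-0.28 to 0.16) and Tbp (-0.41 to 0.16) without 1 library, of Taf9b with median-ratio scaling (-0.093), and of Med12l (-0.067) and Taf6 (0.012) with length correction, with or without the block.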
